A study of Mus musculus with 4 samples.

Results

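Matrix metalloproteinases (MMPs) are zinc-dependent endopeptidases that cut collagens, laminins, proteoglycans and many cell surface and signalling proteins, and tissue inhibitors of metalloproteinases (TIMPs) bind their active site and block them. Most MMPs are secreted as inactive proenzymes that other proteases, among them plasmin, activate. In the intestine, stromal cells, infiltrating leukocytes and epithelial cells at wound edges are known sources of MMPs.

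The genes described are 10 members of these families: 7 MMP genes (Mmp2, Mmp3, Mmp8, Mmp9, Mmp10, Mmp13 and Mmp14) and 3 TIMP genes (Timp1, Timp2 and Timp3). They were chosen by name from the 19938 genes that had a probe set with a single gene symbol. Each of the 10 had 1 such probe set, so no choice between probe sets was needed. RNA was taken from whole small intestine of C57BL/6 mice and read on 4 Affymetrix arrays. The controls were 2 wild-type arrays, titled XX and XY, and the other 2 arrays came from mice with the CFLARs Tg genotype, titled XCFX and XCFY. The transgene encodes CFLARs, a short isoform of the Cflar product, which regulates caspase-8, and a transgene on the X chromosome is one reading of the XCF notation. No treatment was named for either genotype. The promoter that drives the transgene, the age of the mice, the stretch of intestine and the number of animals behind an array are not stated in the sources used here, although the series title speaks of preterm mice. The 2 arrays of a genotype differ in sex type, so p-values measure a spread that includes this difference and may be technical in part.

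Values are log2 expression values as deposited, and an increase of 1 is a doubling of the reading. Their array medians lay between 8.31 and 8.33. Readings of Y-linked genes in the XX-type arrays and of Xist in the XY-type arrays ran from 5.13 to 6.78 and serve as a scale of background. The labelled tissue showed its markers: the 10 epithelial markers had mean levels of 12.59 to 12.94 in the 4 arrays. Markers of fibroblasts (10 genes, 10.67 to 10.81) and smooth muscle (6 genes, 12.68 to 12.94) were also present, so this is whole tissue. In such tissue, fewer cells of a type and less RNA per cell cannot be told apart.

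Levels were compared between the genotypes with limma's moderated test over 13956 genes, after the 30% of genes with the lowest mean were left out. A gene is said to rise or fall where the Benjamini-Hochberg adjusted p was under 0.05. Of the 10 genes, 8 were fitted, and Mmp3 and Mmp8 lay under the filter. Among the 8, Mmp10 and Mmp13 rose and 0 fell. Over all fitted genes 19.3% were called, 8.44% as higher and 10.9% as lower, so 2 of 8 is a share near the background and is no result about the family as a whole. Before adjustment, 5 of the 8 had a p under 0.05, beside 39.1% of all fitted genes. The median difference of the 8 was 0.48, beside -0.01 over all fitted genes. It was 0.73 without CFLARs Tg replicate 1 and 0.22 without replicate 2. Both CFLARs Tg arrays lay above both wild-type arrays in 7 of the 10 genes and below them in 2, beside 29.2% and 31.6% of all 19938 genes.

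**Figure D1:**
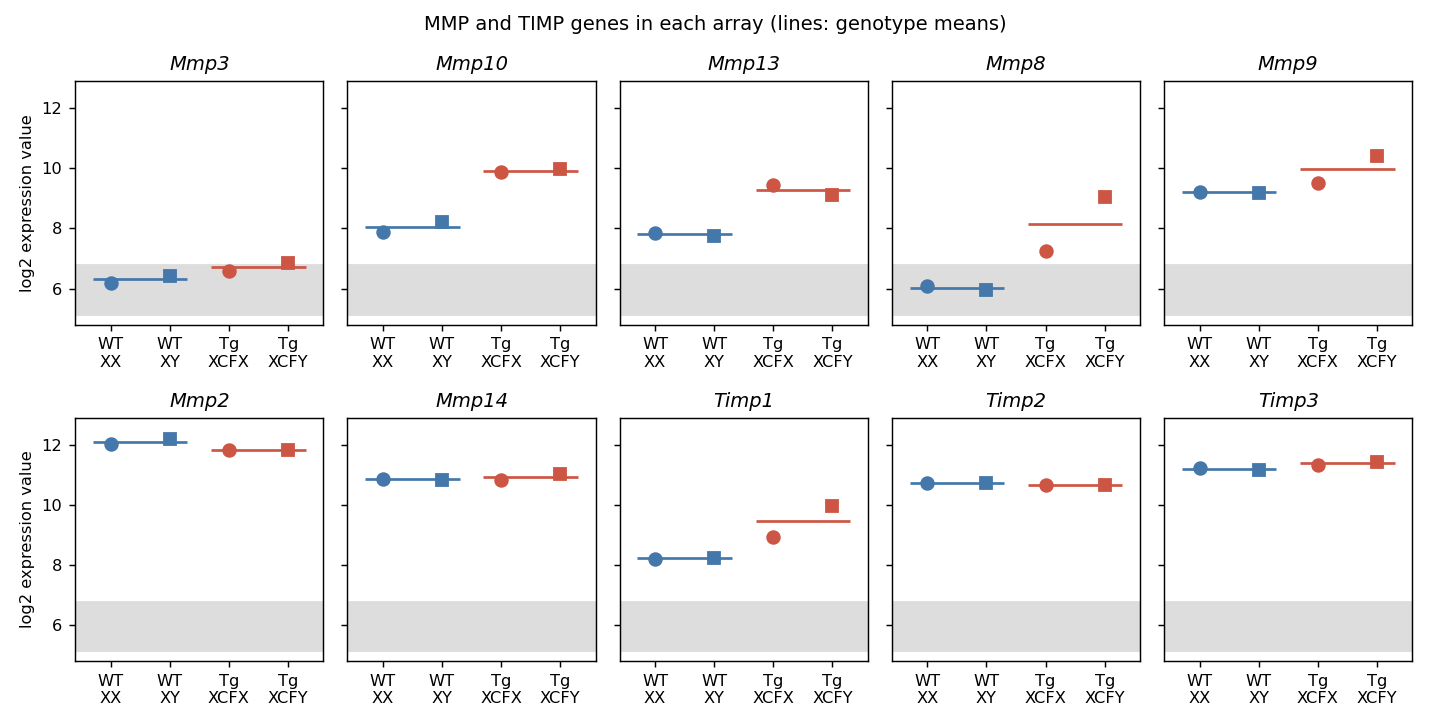
Each panel plots the log2 expression value (vertical axis) of 1 gene in the 4 arrays (horizontal axis), with wild-type in blue, CFLARs Tg in red, circles for XX-type and squares for XY-type arrays. Lines are the means of 2 arrays, and the grey band spans the background readings of 5.13 to 6.78. Mmp10 and Mmp13 stood apart by genotype, Mmp8, Mmp9 and Timp1 were highest in the XCFY array, and Mmp2, Mmp14, Timp2 and Timp3 differed by less than 0.3 in the mean.

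The stretches of DNA just before the start sites of 4 MMP genes are shown because Mmp10 and Mmp13 rose and Mmp3 and Mmp8 lie in the same stretch of chromosome 9. AP-1, the dimer of Fos and Jun proteins, is a textbook regulator of stromelysin and collagenase genes, and its binding motif TGANTCA reads the same on both strands. The 120 bases before the RefSeq start site are given 5′ to 3′ on the plus strand of GRCm38.p6, and capitals mark the motif.
Mmp10 (chr9:7502222-7502341): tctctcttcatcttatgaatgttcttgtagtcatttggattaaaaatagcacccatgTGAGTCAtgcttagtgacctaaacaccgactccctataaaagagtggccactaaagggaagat
Mmp13 (chr9:7272394-7272513): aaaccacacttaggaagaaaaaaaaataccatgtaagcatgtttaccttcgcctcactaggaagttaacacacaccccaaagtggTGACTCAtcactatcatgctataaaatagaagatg
Mmp3 (chr9:7445702-7445821): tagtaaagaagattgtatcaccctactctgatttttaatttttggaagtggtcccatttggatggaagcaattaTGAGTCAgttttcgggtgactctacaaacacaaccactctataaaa
Mmp8 (chr9:7558309-7558428): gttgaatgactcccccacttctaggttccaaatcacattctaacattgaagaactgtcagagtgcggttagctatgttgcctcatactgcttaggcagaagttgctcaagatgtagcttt

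The motif begins 63 bases before the start site in Mmp10, 35 bases in Mmp13 and 46 bases in Mmp3. It was searched in windows from 250 bases before to 50 bases after the start site, which the RefSeq promoter table held for 8 of the 10 genes. Mmp10, Mmp13 and Mmp3 held it, and the windows of Mmp8, Mmp14, Timp1, Timp2 and Timp3 did not. Over all 32851 windows, 7.81% held it. Of 14 other family genes, with 17 windows between them, 5 held it in at least 1 window. These were Mmp1a, Mmp1b, Mmp7, Mmp12 and Mmp20, all of which lie in the same stretch of chromosome 9. Mmp7 and Mmp12 have 2 windows each and held it in 1 of them, whereas the share of 7.81% counts windows. These matches describe the letters of the windows, and binding was not measured.

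The stromelysins and the rodent interstitial collagenase come first. Mmp10 encodes a stromelysin, which cuts proteoglycans, laminin and other matrix proteins and can activate procollagenases. It read 7.89 and 8.21 in the XX and XY wild-type arrays, and 9.87 and 9.97 in the XCFX and XCFY arrays. Both CFLARs Tg readings lay above both wild-type readings, by far more than either genotype's spread. The means were 8.05 ± 0.23 and 9.92 ± 0.07 (SD, n = 2), a 3.66-fold rise (log2 difference 1.87, SE 0.12, limma adjusted p = 0.00899). Mmp10 was still called when either wild-type array was left out (adjusted p = 0.0380 without replicate 1 and 0.0237 without replicate 2).

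Mmp13 encodes the main interstitial collagenase of rodents, which opens the triple helix of fibrillar collagen. It read 7.85 and 7.76 in the wild-type arrays and 9.44 and 9.12 in the XCFX and XCFY arrays. The groups did not overlap, and the XCFX reading was the higher of the CFLARs Tg pair. Mmp13 rose 2.79-fold (means 7.80 ± 0.06 and 9.28 ± 0.23, log2 difference 1.48, SE 0.12, limma adjusted p = 0.0136). Its call was lost without wild-type replicate 1 or replicate 2 (adjusted p = 0.0875 and 0.0938), when only the CFLARs Tg arrays were left to estimate the spread.

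Mmp3, the other stromelysin, read near background. Its values were 6.20 and 6.42 in wild-type and 6.60 and 6.84 in CFLARs Tg, and 3 of the 4 lay in the background range. The groups did not overlap, and the difference of 0.41 compares with gaps of 0.23 and 0.24 between arrays of a genotype. In the fit without a filter it was not called (adjusted p = 0.0903, 95% interval 0.10 to 0.71), beside 12.0% of 19938 genes called there, with Mmp10 and Mmp13 called among the 10. Mmp3 and Mmp10 are closely related in sequence, and binding of one RNA to the probes of the other was not tested.

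Mmp8, the collagenase stored in neutrophil granules, had the largest difference among the 10 genes and the widest spread. Its wild-type readings of 6.08 and 5.96 lay in the background range, and its CFLARs Tg readings were 7.24 (XCFX) and 9.06 (XCFY). Both CFLARs Tg arrays were higher than both wild-type arrays, and they were 1.81 apart from each other. The mean difference was 2.13, with a 95% interval of 0.63 to 3.62 in the fit without a filter (adjusted p = 0.0794), so Mmp8 was not called. Since its wild-type readings were at background, the difference may not measure the size of any change in RNA.

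The gelatinases cut denatured collagen and basement membrane collagen. Mmp9, the gelatinase that neutrophils and macrophages release, read 9.21 and 9.19 in wild-type and 9.50 and 10.42 in the XCFX and XCFY arrays. The wild-type arrays were 0.03 apart and the CFLARs Tg arrays 0.92 apart, with no overlap between genotypes. Its difference of 0.76 was not called (SE 0.31, limma adjusted p = 0.142, 95% interval -0.04 to 1.57). The difference was 1.22 without CFLARs Tg replicate 1 and 0.30 without replicate 2, each with 1 array standing for the genotype.

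Mmp2, the gelatinase of stromal cells, was the only MMP of the 7 with a lower mean in CFLARs Tg. It read 12.02 and 12.19 in wild-type and 11.82 and 11.81 in CFLARs Tg. Both CFLARs Tg readings lay below both wild-type readings, while the wild-type arrays were 0.18 apart. The difference of -0.29 was not called (SE 0.08, limma adjusted p = 0.0669, 95% interval -0.50 to -0.08). Mmp14, the membrane-bound protease that activates the Mmp2 proenzyme, read 10.87 and 10.84 in wild-type and 10.85 and 11.03 in CFLARs Tg. Its groups overlapped, and its difference of 0.09 was not called (adjusted p = 0.494, 95% interval -0.13 to 0.30).

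Of the inhibitors, Timp1 had the largest difference. This secreted TIMP is inducible by cytokines, and its gene lies on the X chromosome. It read 8.21 and 8.23 in the XX and XY wild-type arrays and 8.94 and 9.97 in the XCFX and XCFY arrays. The wild-type arrays were 0.02 apart although they differ in sex type, the CFLARs Tg arrays were 1.03 apart, and the genotypes did not overlap. The difference of 1.23 was not called (SE 0.34, limma adjusted p = 0.0678, 95% interval 0.34 to 2.13). A block for sex type led to a call (adjusted p = 0.0237), as were 22.3% of all fitted genes, and 3 of the 8 fitted genes were then called: Mmp10, Mmp13 and Timp1. Without CFLARs Tg replicate 1 the difference of Timp1 was 1.75 and without replicate 2 it was 0.72, each with 1 array standing for the genotype.

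Timp2, which takes part in the activation of the Mmp2 proenzyme by Mmp14 as well as in inhibition, read 10.73 and 10.72 in wild-type and 10.66 and 10.68 in CFLARs Tg. All 4 readings lay within a narrow range, and the difference of -0.05 was not called (adjusted p = 0.518), with a 95% interval of -0.19 to 0.09. Timp3, which is bound to the matrix and also inhibits ADAM proteases, read 11.23 and 11.15 in wild-type and 11.33 and 11.43 in CFLARs Tg. Its CFLARs Tg readings were the higher ones without overlap, and its difference of 0.19 was not called (adjusted p = 0.113, 95% interval 0.01 to 0.37).

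**Figure D2:**
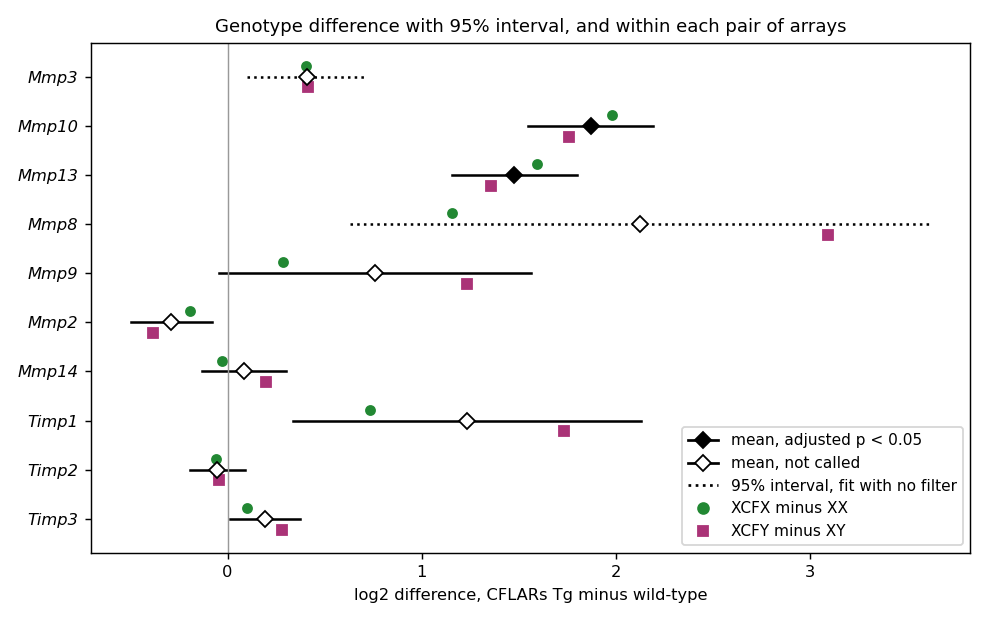
The horizontal axis gives the log2 difference, CFLARs Tg minus wild-type, for each of the 10 genes (rows). Diamonds are means, filled where the adjusted p was under 0.05, horizontal lines are 95% intervals (dotted from the fit without a filter), and circles and squares are the differences within the XX-type and the XY-type pair of arrays. The filled diamonds are Mmp10 at 1.87 and Mmp13 at 1.48, and the pairs of Mmp8 lie furthest apart.

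The differences within the XX-type and the XY-type pair rest on 1 array each and have no test. Mmp10 and Mmp13 were higher in both pairs by similar amounts, 1.98 and 1.76 for Mmp10 and 1.60 and 1.36 for Mmp13 (XCFX minus XX, then XCFY minus XY). Mmp8 differed by 1.16 and 3.10, Timp1 by 0.73 and 1.73, and Mmp9 by 0.29 and 1.23. For Mmp8, Mmp9 and Timp1 the XY-type pair gave the larger difference, and for Mmp10 and Mmp13 the XX-type pair did. The median gap between the 2 CFLARs Tg arrays over all fitted genes was 0.11, against gaps of 1.81, 0.92 and 1.03 for Mmp8, Mmp9 and Timp1 and of 0.10 and 0.32 for Mmp10 and Mmp13.

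Markers of neutrophils also read higher in the XCFY than in the XCFX array. Of 12 neutrophil markers, 8 were fitted, of which 7 rose and 0 fell (median difference 1.98). The filter was on the mean over all 4 arrays. S100a9, S100a8, Cxcr2 and Il1r2 had wild-type means of 7.25, 6.74, 6.71 and 7.19, under its 7.48, and passed through their CFLARs Tg readings. The count of 7 and the median are therefore tilted to rises. Over all 12 markers, 10 lay higher in CFLARs Tg without overlap and 0 lower, beside 29.2% and 31.6% of all 19938 genes. The mean level over all 12 was 7.12 and 7.23 in wild-type, 8.17 in XCFX and 9.07 in XCFY. S100a9, a calcium-binding protein abundant in neutrophils, read 7.15 and 7.36 in wild-type and 9.36 and 10.57 in the XCFX and XCFY arrays, and Cxcr2, a chemokine receptor of neutrophils, read 6.59, 6.83, 8.53 and 9.75 in the same order. Mpo and Elane, granule genes of immature neutrophils, lay under the filter and have no test in the main fit. Mpo read 6.99 to 7.55 and Elane 7.28 to 7.43 over the 4 arrays. The granule genes Ltf, Ngp and Camp are also in the list: Ltf rose, Ngp was fitted and not called, and Camp lay under the filter. Of 12 macrophage markers, 11 were fitted and 0 were called by limma (5 with sex type as a block). Over all 12, 9 lay higher in CFLARs Tg without overlap and 0 lower, beside 29.2% and 31.6% of all 19938 genes. Among the fitted ones Itgam, Cd14, Lyz2 and Fcgr1 had the largest differences, 1.22, 1.11, 0.99 and 0.37 (limma adjusted p = 0.0702, 0.0694, 0.0610 and 0.0726). Each of these read higher in XCFY than in XCFX. Cd14, with a wild-type mean of 7.32, passed the filter through its CFLARs Tg readings. The mean level over all 12 macrophage markers was 8.88 and 8.92 in wild-type, 9.13 in XCFX and 9.58 in XCFY. Fibroblast markers did not follow this order: 0 of 10 rose and 2 fell (Fap and Dpt), with a median difference of -0.04 and mean levels of 10.81 and 10.80 in wild-type, 10.67 in XCFX and 10.77 in XCFY. The call of Fap was lost without a filter (adjusted p = 0.0527). Other tissue markers also differed between the XCFX and XCFY arrays. Smooth muscle markers had mean levels of 12.68 in both wild-type arrays, 12.76 in XCFX and 12.94 in XCFY, and 0 of 6 were called by limma (0 with sex type as a block, and 2 had an unadjusted p under 0.05). Epithelial markers had mean levels of 12.76 and 12.78 in wild-type, 12.94 in XCFX and 12.59 in XCFY. Of these 10 genes, 4 had a higher mean in CFLARs Tg, 3 rose and 0 fell. Krt20 rose by 1.35, Krt18 by 0.64 and Krt8 by 0.33 (limma adjusted p = 0.0202, 0.0150 and 0.0380). The enterocyte gene Fabp1 read 13.37 and 13.40 in wild-type, 13.06 in XCFX and 12.08 in XCFY, and was not called (limma adjusted p = 0.141). Endothelial markers had mean levels of 10.22, 10.16, 9.97 and 10.11 in the same order. Of these 6 genes, 0 had a higher mean in CFLARs Tg, 0 rose and 2 fell, beside 10.9% of all fitted genes called as lower. Kdr fell by 0.30 and Tek by 0.29 (limma adjusted p = 0.0462 and 0.0449). Both calls were lost in the fit without a filter (adjusted p = 0.0565 and 0.0551). The part of these cell types in the readings of Mmp8, Mmp9 and Timp1 was not tested.

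**Figure D3:**
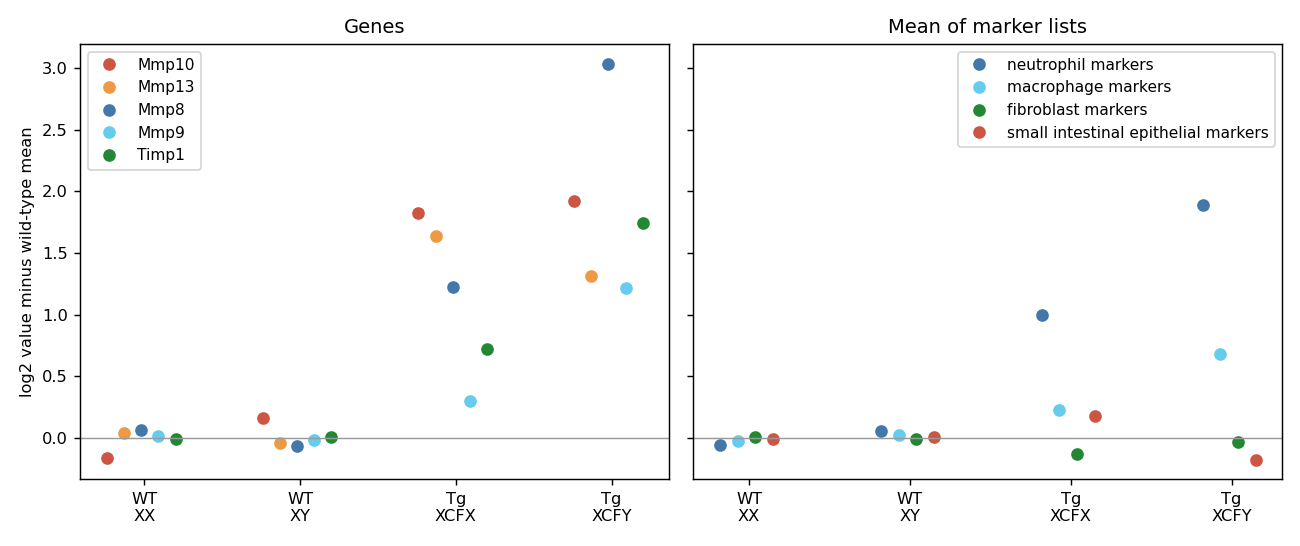
The vertical axis gives the log2 value minus the wild-type mean in each of the 4 arrays (horizontal axis), for 5 genes on the left and for the mean of 4 marker lists on the right; points are single arrays. Mmp8, Mmp9, Timp1 and the neutrophil and macrophage markers were highest in the XCFY array. Mmp10 and Mmp13 were raised about equally in both CFLARs Tg arrays.

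Genes with the most similar profile were sought by the smallest Euclidean distance between log2 values over the 4 arrays, each gene centred on its own mean. For Mmp8, which had the largest difference, the 5 nearest of the fitted genes were Wfdc17, Lcn2, Ifitm6, Il1r2 and Serpina3n (distances 0.30 to 0.50). Wfdc17 read 7.25 and 7.50 in wild-type and 8.77 and 10.42 in XCFX and XCFY. For Mmp10, taken as a second gene after its values were seen, the nearest were Gpx2, Serpinb9b, B3galt5, Muc3 and Upp1 (distances 0.25 to 0.32). Gpx2 read 10.51 and 10.60 in wild-type and 12.47 and 12.71 in CFLARs Tg, close together within each genotype as Mmp10 was. With 4 arrays such a distance mostly reflects the genotype step and the gap within CFLARs Tg.

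Mmp3, Mmp8, Mmp10 and Mmp13 belong to a stretch of chromosome 9 in which the RefSeq table lists 10 protein-coding genes in a row, all of them MMP genes. In chromosomal order these are Mmp13, Mmp12, Mmp1b, Mmp3, Mmp1a, Mmp10, Mmp8, Mmp27, Mmp20 and Mmp7. All 10 had a probe set, and 3 passed the filter on low values: Mmp13, Mmp10 and Mmp7. Mmp10 and Mmp8 lie side by side and differed by 1.87 and 2.13. Mmp1a, between Mmp3 and Mmp10, differed by -0.03 and Mmp27, beside Mmp8, by 0.08, both from readings in the background range. Mmp7, the matrilysin of Paneth cells, lies at the far end from Mmp13. It read 7.78 and 8.42 in wild-type and 9.18 and 10.26 in XCFX and XCFY, higher without overlap, though the wild-type arrays were 0.64 apart. Its difference of 1.62 was not called (SE 0.42, limma adjusted p = 0.0585), and a block for sex type led to a call (adjusted p = 0.00379).

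**Figure D4:**
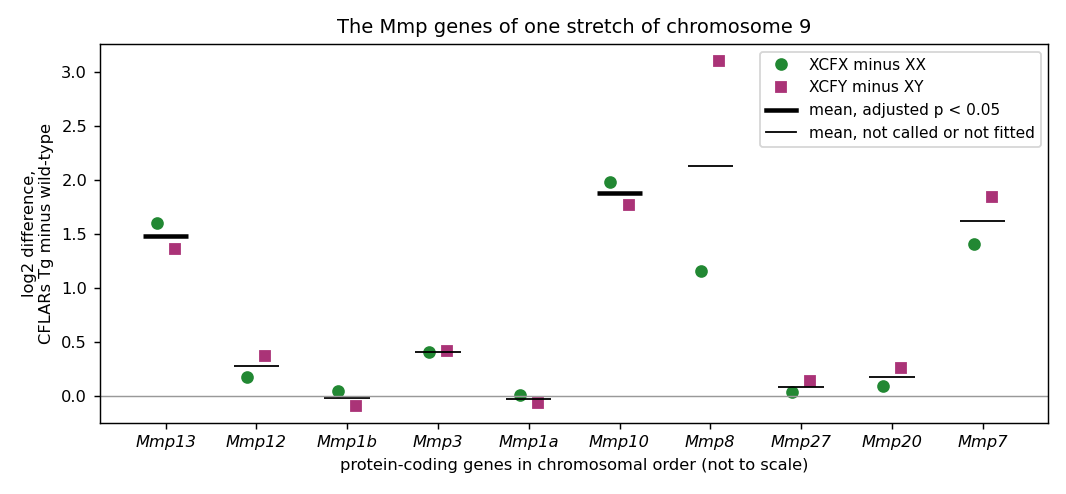
The horizontal axis lists the 10 MMP genes of the chromosome 9 stretch in order, not to scale, and the vertical axis gives the log2 difference, CFLARs Tg minus wild-type. Bars are means, thick where the adjusted p was under 0.05, and circles and squares are the XX-type and XY-type pairs; Mmp13, Mmp10, Mmp8 and Mmp7 lie above 1 and the other 6 genes below 0.5.

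Of 17 other MMP and TIMP genes listed, 16 had a probe set and 8 were fitted. Among these 0 rose and 1 fell, with a median difference of 0.08. The gene that fell was Mmp16, a membrane-type MMP, from 9.07 ± 0.02 to 8.71 ± 0.03 (difference -0.36, adjusted p = 0.0258). Mmp28, an MMP of epithelia, differed by 0.28 (adjusted p = 0.0772) and Mmp19 by 0.43 (adjusted p = 0.226).

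Genes that control MMP activity outside the cell were taken next. Of 18 listed, 11 were fitted, 5 rose and 0 fell, with a median difference of 0.42 (0.59 without CFLARs Tg replicate 1 and 0.25 without replicate 2). Plaur, the receptor that holds urokinase at the cell surface, rose from 7.70 ± 0.14 to 10.01 ± 0.03 (difference 2.31, SE 0.08, adjusted p = 0.00230). Plau and Plat, which encode urokinase and tissue plasminogen activator, the enzymes that convert plasminogen to plasmin, rose by 1.03 and 0.79 (adjusted p = 0.0179 and 0.0156). Lcn2, whose human counterpart encodes a protein that forms a complex with MMP9, rose by 2.11 (adjusted p = 0.0478). Its reading was 9.69 in XCFX and 11.13 in XCFY. Lcn2 was not called in the fit without a filter (adjusted p = 0.0530). Its difference was 1.39 without CFLARs Tg replicate 2 and 2.83 without replicate 1. Cd44, a hyaluronan receptor that can dock MMP9, rose by 0.85 (adjusted p = 0.0343). The inhibitor gene Reck, a membrane-anchored brake on MMPs, differed by -0.17 and was not called (adjusted p = 0.119). Without wild-type replicate 1 or replicate 2, 1 of these 11 genes was still called, Plaur (adjusted p = 0.0185 and 0.0160). In the other lists of pathway genes and cell type markers named here, 0 genes were called without either wild-type array (limma).

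Among 20 known inducers of MMP transcription, 13 were fitted, 5 rose and 0 fell, with a median difference of 0.34. Il1b and Tnf, with wild-type means of 7.09 and 7.13, passed the filter of 7.48 through their CFLARs Tg readings. The count of rises is tilted by this. Of the 17 with a probe set, 15 lay higher in CFLARs Tg without overlap and 1 lower, beside 29.2% and 31.6% of all 19938 genes. The cytokine genes Il1b, Il1a and Tnf rose by 2.51, 1.93 and 1.20 (adjusted p = 0.0207, 0.0179 and 0.0133), the growth factor gene Hbegf rose by 0.94 and the AP-1 subunit gene Junb by 0.58 (adjusted p = 0.0208 and 0.0231). The other fitted AP-1 subunit genes were not called: Fos differed by 0.55, Fosl2 by 0.24, Fosb by 0.21 and Jun by -0.16. Of 15 ADAM and ADAMTS proteases, the relatives that TIMPs also inhibit, 13 were fitted and 1 rose, Adamts1, by 0.37 (adjusted p = 0.0316), with a median difference of 0.07. Adam8, found on neutrophils, differed by 0.48 (adjusted p = 0.0524, or 0.0213 with a block for sex type), Adamts4 by 0.27 and Adam10 by 0.26.

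The genes of matrix proteins that MMPs cut were mostly not called. Of 10 fibrillar and associated collagen genes, 0 were called by limma (0 also with sex type as a block, and 0 with an unadjusted p under 0.05), and their differences ran from -0.13 for Col3a1 to 0.31 for Col12a1. Of 12 basement membrane genes 1 rose and 1 fell: the laminin gene Lama1 rose by 0.48 (adjusted p = 0.0349) and the nidogen gene Nid2 fell by 0.36 (adjusted p = 0.0264). Of 10 fitted elastic and interstitial matrix genes 2 rose and 1 fell. Tnc and Vcan, which encode the provisional matrix proteins tenascin C and versican, rose by 0.66 and 0.56 (adjusted p = 0.0452 and 0.0445), and Fbln1 fell by 0.24 (adjusted p = 0.0454). Without a filter on low values these 3 calls were lost (adjusted p = 0.0507, 0.0505 and 0.0579), and that of Fbln1 was also lost with a block for sex type (adjusted p = 0.0724). The median differences of these 3 lists were -0.0016, 0.05 and -0.01, beside -0.01 over all fitted genes. They were 0.04, 0.09 and 0.08 without CFLARs Tg replicate 1, and -0.04, -0.03 and -0.09 without replicate 2.

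**Figure D5:**
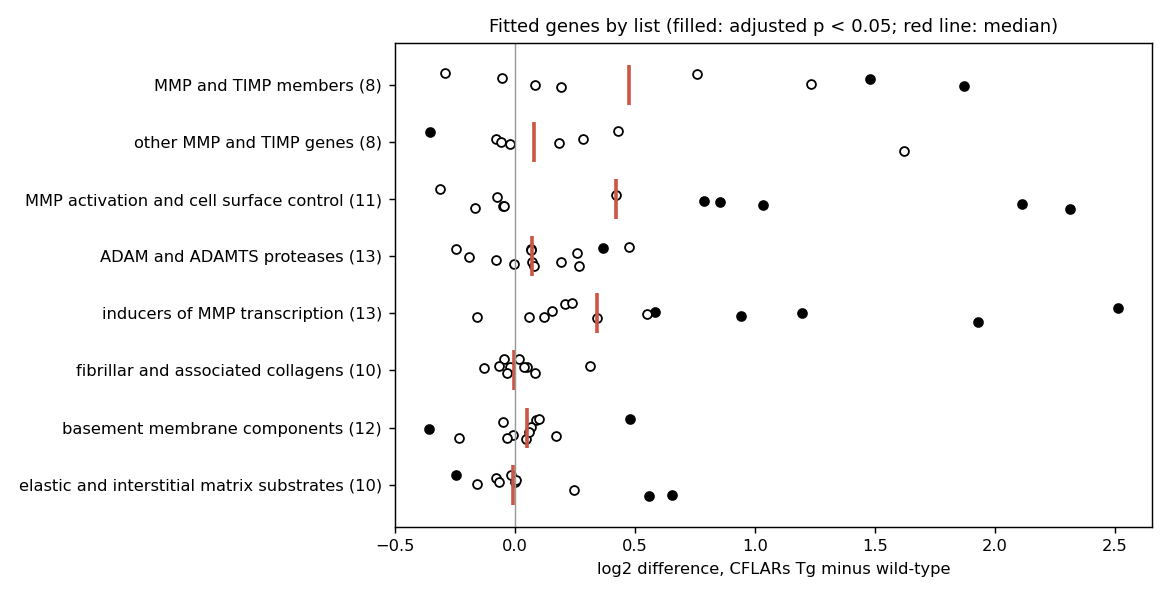
Each point is a fitted gene, placed by its log2 difference, CFLARs Tg minus wild-type (horizontal axis), in 8 lists (rows, with the number of fitted genes in brackets). Filled points had an adjusted p under 0.05, red lines are medians and vertical scatter within a row carries no meaning; the medians of the 3 matrix lists lie between -0.01 and 0.05.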

How the data were processed

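Total RNA from small intestine was labelled with biotin and read on single-colour Affymetrix arrays, per the labels. The values the authors deposited are log2 expression values for 28856 probe sets. Summarisation, background correction and normalization are not given in the sources used here, so their effect on low readings could not be examined. The table had 0 missing values, and the number of arrays (2 per genotype) limits precision.

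Gene names came from the platform annotation: 21789 probe sets had 1 gene symbol, 1621 had several and 5446 had none or were not listed. Gene identifiers of 21698 probe sets matched RefSeq (GRCm38.p6), which changed 0 symbols. Promoter sequences are RefSeq's. The probe set with the highest mean represented a gene, and genes with a mean log2 value under 7.48 (the lowest 30%) were not fitted. The genotypes were compared with limma 3.58.1 in R 4.3.3 (lmFit and eBayes, no covariates, 2 residual and 2.64 prior degrees of freedom, Benjamini-Hochberg adjustment over all fitted genes). The script was tested on simulated data. The alternatives were sex type as a block, other filters, quantile normalization, median centring, the median of probe sets, a variance trend, and leaving out each array. The fit with sex type as a block has fewer residual degrees of freedom than the main fit. Replicate 1 is the XX-type and replicate 2 the XY-type array.

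The members and lists were chosen with earlier results of these data known. Genes named were all members, up to 4 genes with the largest difference in each other list, every called gene of a list with 5 or fewer, and the 5 nearest profiles of the member with the largest difference. Reck, the AP-1 subunit genes other than Junb, Mpo, Elane, Ltf, Ngp, Camp, the chromosome 9 neighbours and the genes nearest to Mmp10 were named after their values were seen. A planned description of protein motifs was not run, since protein sequences were not used here.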

Additional observations from a re-analysis of the deposited data

Results flagged for a closer look

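The readings of 4 genes named in the report moved in opposite directions in the XX-type and the XY-type pair of arrays, each pair being 1 array against 1. Mmp14 differed by -0.03 in the XX-type pair and by 0.20 in the XY-type pair. Col6a2 did so by -0.16 and 0.032, Cdh5 by -0.23 and 0.038, and Cldn5 by -0.22 and 0.0014. These differences between the pairs were not tested, and the design leaves no replicate within a pair.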

How the results depend on the processing

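The calls of Mmp10 and Mmp13 held with sex type as a block, without a filter, after quantile normalization or median centring, with the median of probe sets and with a variance trend. With the lowest 50% of genes left out, 1 member was called, Mmp10, because Mmp13 was then not fitted. Leaving out 1 array gave 1 to 7 members called and 40 to 6559 genes called over all fitted genes, against 2 and 2695. The low ends came without a wild-type array, when the spread rests on the CFLARs Tg arrays, and the high ends without a CFLARs Tg array, when the lone array is assumed to vary like the wild-type arrays. Over the members, sex type as a block made 1 further call (3 members in all, Timp1 being added). Among the members with a test, 0 called differences changed sign under any of these settings; the difference of Mmp14, not called, was -0.01 without CFLARs Tg replicate 2. Mmp3 and Mmp8 had a test only without a filter. Readings near background limit what can be said of Mmp3 and of the wild-type level of Mmp8.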

Other observations

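The wild-type arrays were 0.05 apart in the median fitted gene, but some genes of the lists were further apart. Adamts15, an aggrecan-cutting protease gene, read 8.44 in the XX and 7.67 in the XY wild-type array, and 7.76 and 7.85 in the XCFX and XCFY arrays. The protease inhibitor gene A2m read 7.47 and 8.10 in wild-type and 7.81 and 7.14 in CFLARs Tg. Among the 10 MMP and TIMP genes the widest wild-type gap was that of Mmp10, 0.32. These genes were singled out after their values were seen.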
